A study of Canis lupus familiaris with 24 samples.

Results

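The protein subunits of the cytosolic ribosome were followed across the lungs of 3 mongrel dogs. Members were the probe sets whose annotated gene symbol begins RPL or RPS and a digit, or is RPLP0, RPLP1, RPLP2 or RPSA. Kinases (RPS6K), Y-linked copies and pseudogenes were left out, and a probe set that lists further symbols was kept only where these were small nucleolar RNAs. This gave 136 of the 22283 probe sets on the array, for 68 genes, where 11963 genes have a probe set with 1 symbol. A probe set was tested if its detection call was Present on 6 or more of the 24 arrays, which 127 member probe sets for 66 genes passed, among 20034 in all. The tested genes encode 35 proteins of the large subunit, 24 of the small subunit, the acidic stalk proteins RPLP1 and RPLP2, and 5 paralogs (RPL3L, RPL10L, RPL26L1, RPL36AL and RPS27L). The platform annotation gave no probe set for RPLP0 or RPSA.

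In every dog the left lung had been mildly injured by saline lavage, 20 ml/kg given 4 times, which removes surfactant, and the right lung was the control. The lungs were then ventilated independently for 5 h at 25 breaths/min, and 5 cmH2O of positive end-expiratory pressure (PEEP) was applied to the control lung alone. Injury, side and PEEP therefore cannot be told apart, and "injured" stands for all of them. One piece each was taken from the dependent (gravitationally lower) and nondependent part of the apex and of the base, which gives 8 groups of 3 arrays, 1 array per dog. All animals had received pentobarbital anesthesia and pancuronium as a muscle relaxant. A piece from the middle of the base was not analysed here. A piece of lung is a mixture of cells, so fewer cells of a type and less RNA per cell cannot be told apart.

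Ribosomal proteins are made in balanced amounts and assembled with ribosomal RNA in the nucleolus. Their mRNAs are abundant in nearly all cells and begin with a 5′ terminal oligopyrimidine (TOP) tract, which lets the mTOR pathway control their translation together with that of several elongation and initiation factors. Transcription of these genes and of the ribosome assembly factors is driven in part by MYC. In lung, as in other tissues, they are usually treated as housekeeping genes.

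Dog RNA was hybridised to human probe sets, so the level of one probe set is not comparable with that of another, and only differences between arrays are given. Many ribosomal protein mRNAs have near-identical processed copies in mammalian genomes, and 54 of the 127 tested probe sets carry the array maker's mark for probes shared among sequences (x_at). Counts for such genes could include related transcripts. The members were among the brightest probe sets on these arrays: 82 of 127 (64.6%) lay among the 2004 with the highest mean signal (10% of those tested), and 91 of the 136 were called Present on all 24 arrays. For this reason values for the other 1922 of these 2004, called the bright non-members, stand beside those for all tested probe sets.

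The share of Present calls per array ran from 60.78 to 82.32%, with the lowest shares in dog 1. In dog 3, the injured lung's arrays for both apical positions and for the dependent base stood apart, with highest signals of 27749, 22155 and 26350 against at most 20465 on the other arrays. The member median of each comparison that uses these arrays is given with and without them, with examples of genes whose values moved. The ratio of 3′ to 5′ probe signal for GAPDH and ACTB, a sign of RNA integrity and of how far the labelling reached, varied between arrays. Its values are given where they moved with the members.

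The level of the whole set was summarised on each array as the median, over 66 genes with 1 probe set each, of the log2 signal minus that probe set's mean over 24 arrays. In the nondependent base this value was -0.23, -0.17 and -0.09 in the control lungs of dogs 1, 2 and 3 and 0.35, 0.55 and 0.19 in their injured lungs. The groups did not overlap, and each injured piece was above its own control. In the dependent apex the order was the reverse, with 0.21, 0.52 and 0.06 in the control lungs and -0.27, 0.22 and -0.35 in the injured lungs. Each dog was lower on the injured side there, although the groups overlapped.

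In the nondependent apex the control values were 0.12, 0.14 and -0.15 and the injured values -0.21, 0.02 and -0.36. Every dog was again lower on the injured side, and the groups overlapped. In the dependent base the control values were -0.29, 0.25 and -0.10 and the injured values 0.09, 0.15 and -0.45, so dog 1 was higher and dogs 2 and 3 were lower. The median of the bright non-members differed between the lungs in the same direction at both apical sites and at the nondependent base, over a narrower range: its group means ran from -0.10 (injured dependent apex) to 0.10 (injured nondependent base). The member means ran from -0.18 (injured nondependent apex) to 0.36 (injured nondependent base).

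**Figure D1:**
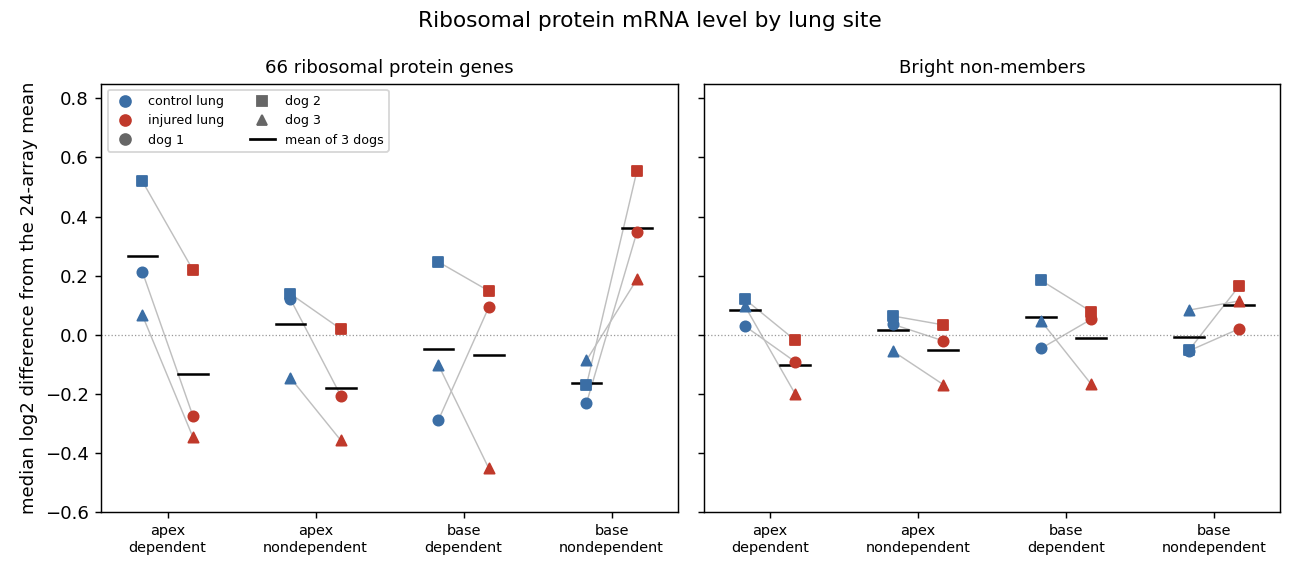
Median log2 difference from the 24-array mean (vertical axis) at 4 sites of the control and injured lung, for 66 ribosomal protein genes (left) and for the 1922 bright non-members (right). Points are single arrays, marker shapes are dogs, grey lines join the lungs of a dog and black bars are means of 3 dogs. In the nondependent base the 3 injured arrays lie at 0.19 to 0.55 and the 3 control arrays at -0.23 to -0.09.

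The nondependent base held the clearest difference between the lungs. There 64 of 66 ribosomal protein genes were higher in the injured lung, with a median log2 difference of 0.50, and the median in single dogs was 0.62, 0.70 and 0.24. All 24 small-subunit genes and 33 of 35 large-subunit genes had a positive difference, with medians of 0.51 and 0.50. Of the 127 probe sets 59 (46.5%) were higher in all 3 dogs, beside 12.3% of all tested probe sets and 29.6% of the bright non-members.

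Only 3 genes passed the test across all probe sets (limma, Benjamini-Hochberg adjusted p under 0.05), and all 3 rose: RPS20, RPL36AL and RPL23. They make up 2.36% of the 127 member probe sets. Of all tested probe sets 0.404% passed in either direction and 0.369% rose. At an unadjusted p under 0.05 there were 35 member probe sets higher and 0 lower (27.6%), beside 8.41% of all tested probe sets.

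RPS20, a protein of the head of the small subunit, had log2 signals of 9.37, 9.62 and 10.13 in the control nondependent base of dogs 1, 2 and 3 and of 11.99, 11.32 and 10.72 in the injured one. Every injured array was above every control array, most in dog 1 and least in dog 3. The difference was 1.64 ± 0.27 (n = 3 dogs), a 3.11-fold rise (limma adjusted p = 0.00738). Here and below, the value after ± is the SE from the limma model, with residual variance pooled over all arrays and groups. It does not measure how far the dogs differed from each other. A second RPS20 probe set stood at 1.05 (adjusted p = 0.291) and was lower by 0.17 in dog 3. A further, dim one stood at 0.08 and differed in sign between dogs. In the dependent apex the first RPS20 probe set had control values of 11.41, 11.16 and 10.70 and injured values of 10.26, 10.56 and 10.32, with every injured array below every control array. In the nondependent apex the values were 10.94, 10.68 and 10.05 against 10.27, 10.39 and 10.14, which overlapped. In the dependent base they were 10.26, 10.33 and 10.22 against 11.08, 10.92 and 10.55, so the groups were again apart, with the injured side higher. None of these 3 differences passed.

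RPL36AL, an autosomal copy of the large-subunit gene RPL36A, had log2 signals of 8.17, 8.49 and 8.83 in the control and 9.83, 9.93 and 9.51 in the injured nondependent base. The groups did not overlap. The difference was 1.26 ± 0.27, or 2.40-fold (limma adjusted p = 0.039, n = 3 dogs). The copies are near-identical, so it is uncertain which of them the probe set measured.

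RPL23, a large-subunit protein that also binds the p53 regulator MDM2, had log2 signals of 8.17, 9.17 and 9.27 in the control and 9.54, 10.08 and 9.87 in the injured nondependent base. The lowest injured array lay above the highest control array. The difference was 0.96 ± 0.21, or 1.95-fold (limma adjusted p = 0.0408, n = 3 dogs). Its second, dimmer probe set stood at 0.53 (adjusted p = 0.805). In the dependent apex the brighter RPL23 probe set had control signals of 9.26, 9.91 and 9.67 and injured signals of 8.44, 9.57 and 9.01. It was lower in each dog, although the groups overlapped. The second probe set stood at 0.36 there.

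RPL24, which forms a bridge between the subunits, was the nearest to the threshold. Its signals were 9.80, 9.75 and 9.98 in the control and 10.93, 11.15 and 10.66 in the injured nondependent base, again without overlap. The difference was 1.07 ± 0.25 (limma adjusted p = 0.0708), and its second probe set stood at 1.01 (adjusted p = 0.0705). By their brightest probe sets RPL18 at 0.98 ± 0.25 (limma adjusted p = 0.0923) and RPL3, a protein at the peptidyl transferase centre, at 0.88 ± 0.22 (0.103) came next. Both were chosen for mention after their values were seen. A further RPL3 probe set stood at 0.75 (limma adjusted p = 0.0901).

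**Figure D2:**
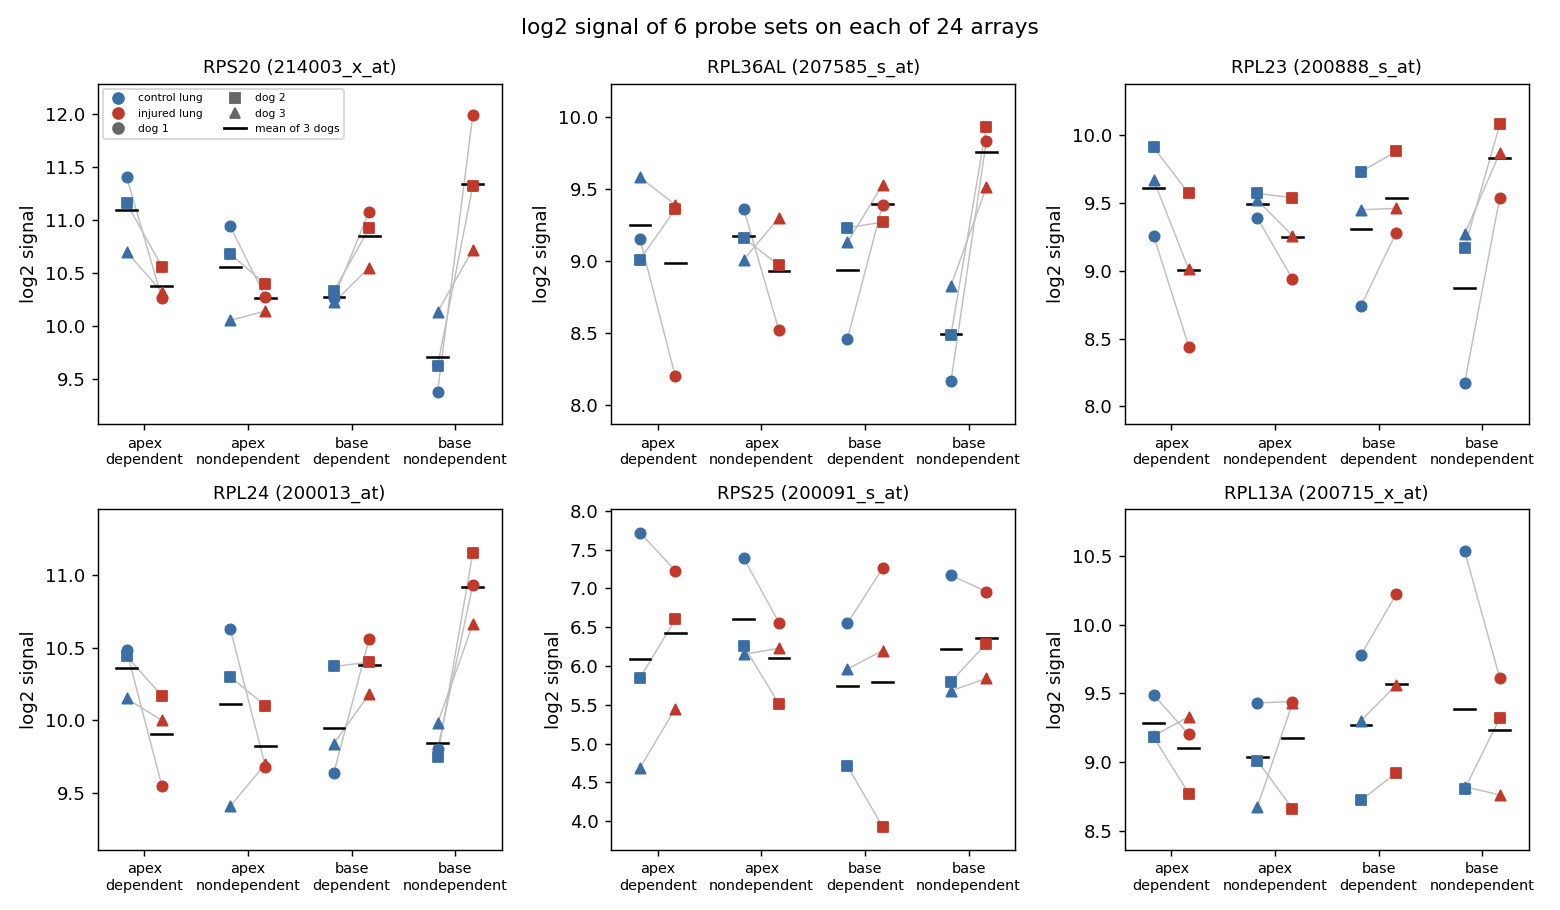
log2 signal of 6 probe sets (vertical axes, each with its own range) at 4 sites of the control and injured lung, with points for single arrays, shapes for dogs and bars for means of 3 dogs. RPS20, RPL36AL, RPL23 and RPL24 lie higher in all 3 injured nondependent base arrays than in the 3 control ones, whereas for RPS25 and RPL13A the control and injured arrays overlap at every site.

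The stalk proteins, which recruit elongation factors, stood at 0.62 ± 0.21 for RPLP2 (limma adjusted p = 0.315) and 0.15 ± 0.21 for RPLP1 (adjusted p = 0.937) in the nondependent base. RPLP2 was higher in all 3 dogs and RPLP1 in dogs 2 and 3. RPL5 and RPL11, which carry the 5S ribosomal RNA and restrain MDM2 when ribosome assembly fails, stood at 0.13 ± 0.28 and 0.40 ± 0.38 and were lower in dog 3. RPS6, the substrate of S6 kinase, stood at 0.44 ± 0.24 and was higher in every dog. None of these passed.

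Among the other small-subunit proteins, RPS3, which lines the mRNA entry site, stood at 0.35 ± 0.28, and RPS19, the gene most often mutated in human Diamond-Blackfan anemia, at 0.41 ± 0.25. RPL22, also known as a binder of viral small RNAs, stood at 0.15 ± 0.20. The paralogs differed widely: the striated muscle form RPL3L was at 1.33 ± 0.49 (limma adjusted p = 0.374), the testis form RPL10L at 0.48 ± 0.23, the p53 target RPS27L at 0.35 ± 0.34 and RPL26L1 at 0.01 ± 0.31. The RPL10L probe set was called Present on all 24 arrays. Whether it measured RPL10L or a related transcript, here and in the other comparisons, was not tested. RPL13A, a large-subunit protein that also silences translation of some inflammatory mRNAs in human myeloid cells, at -0.16, and RPL39, near the exit of the peptide tunnel, at -0.11, were the only genes below 0.

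The probe sets of one gene did not always move together. The 33 genes with more than 1 had 61 further tested probe sets. Of these, 48 (78.7%) had the sign of their gene's brightest probe set in the nondependent base. The share was lower in every other comparison, from 50.8% for position in the control lung to 70.5%. It was 55.7% for level in the injured lung. The size of the difference in the nondependent base went with brightness among the members themselves. Its median was 0.50 for the 82 among the 2004 brightest and 0.11 for the 45 below them.

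It also went with brightness outside the set. Among the 200 brightest probe sets, 35 members had a median difference of 0.51 and the 165 others a median of 0.39, with 77.0% of the others higher. In the next 800 the medians were 0.51 for 32 members and 0.13 for 768 others, and in the following 1004 they were 0.42 for 15 members and -0.01 for 989 others. Below these 2004 the median of the 17985 others was -0.10.

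Normalizations that align arrays along the intensity range gave smaller differences in the nondependent base. The member median was 0.13 after quantile normalization, with 48 of 66 genes higher and 0 called, and 0.19 after cyclic loess, with 50 of 66 higher and RPS20 the one gene called. Centring arrays on the bright non-members gave 0.42 and 59 of 66. The sign of the median was the same in each case.

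The 3 calls also depended on how the dogs entered the test. None passed with no block for the dog, with 1 value per dog, without dog 1 or without dog 2, and the adjusted p of RPS20 ranged from 0.00185 to 0.601 over the alternatives, that of RPL36AL from 0.0214 to 0.714 and that of RPL23 from 0.0246 to 0.765. The differences remained positive in all of these, at 1.14 to 2.16, 0.97 to 1.55 and 0.76 to 1.14. Leaving out the 3 arrays that stood apart, none of which is from this site, kept the member median at 0.50 and gave 4 members called.

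RNA quality moved with the set in part. The injured-minus-control difference of the GAPDH 3′ minus 5′ log2 signal in the nondependent base was 1.35, 0.41 and 0.09 in dogs 1, 2 and 3, and that of ACTB 1.03, 0.48 and -0.47, beside member differences of 0.58, 0.72 and 0.27 on the array medians. In dog 1 the GAPDH difference had the sign of the member difference at each site: -1.10 with -0.49 in the dependent apex, -0.24 with -0.33 in the nondependent apex and 1.42 with 0.38 in the dependent base. The signs were opposite in dog 2 in the dependent apex (0.07 with -0.30) and dependent base (0.17 with -0.10), and in dog 3 in the dependent apex (0.31 with -0.41), and alike at the remaining sites of these dogs. With both ratios as covariates the member median in the nondependent base was 0.40 and 0 members passed, RPS20 standing at 1.35 (limma adjusted p = 0.0824). The part of RNA quality in the result was not tested further.

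Cell type markers in the nondependent base gave no passing gene in any of 9 lists. Lymphocyte markers, from cells rich in ribosomal protein mRNA, had a summed signal of 3706 to 4528 in the control and 3461 to 4176 in the injured arrays, with 11 of 15 tested genes lower (median -0.20). Alveolar type 2 cell markers summed to 3691 to 5135 and 2469 to 3545, with 7 of 8 lower (median -0.47). Type 1 cell markers summed to 4294 to 5337 and 2657 to 4552, endothelial markers to 2394 to 3114 and 1539 to 2945, smooth muscle and fibroblast markers to 6029 to 9733 and 5994 to 6599, and airway markers to 958 to 1282 and 929 to 1237. Macrophage markers summed to 1189 to 1400 and 1057 to 1153, neutrophil markers to 881 to 1041 and 790 to 1419, and red cell and platelet markers to 9304 to 18550 and 7857 to 18404. The part of cell composition in the member difference was not tested.

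**Figure D3:**
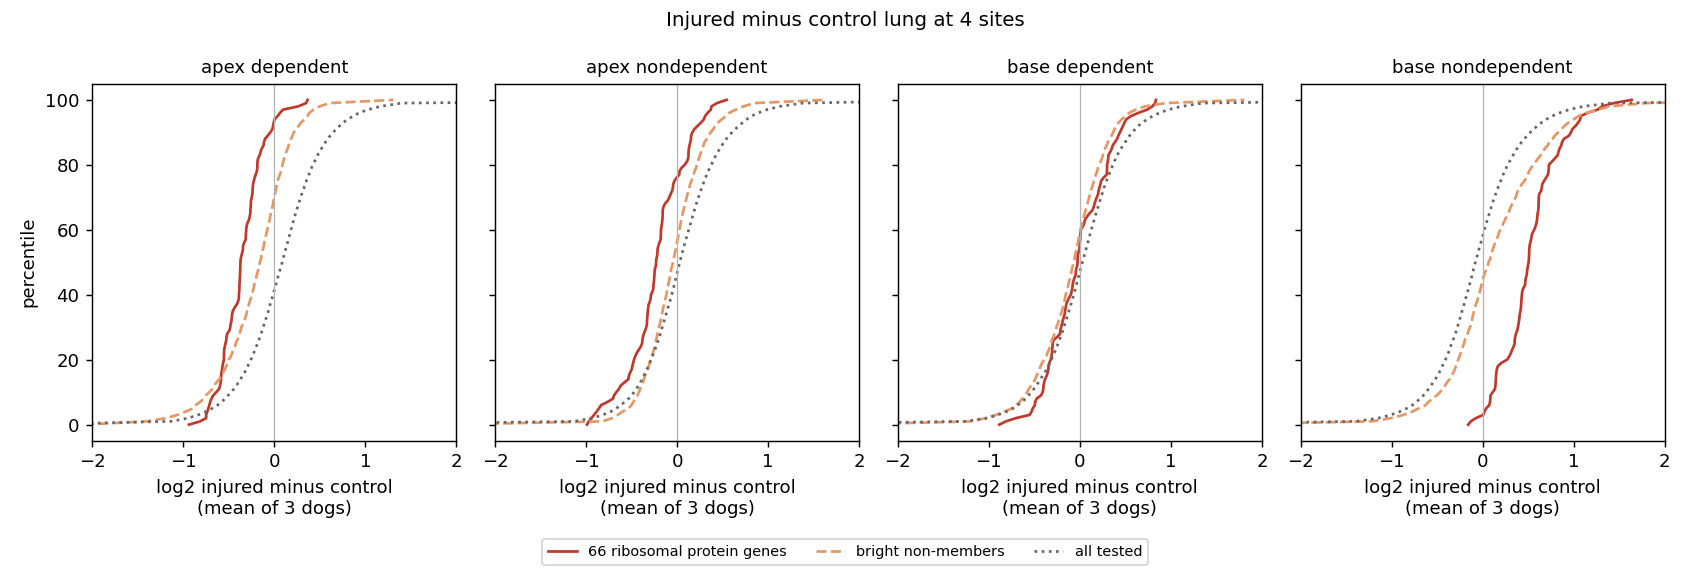
Cumulative distribution (vertical axis, percentile) of the log2 injured-minus-control difference (horizontal axis, mean of 3 dogs, from -2 to 2) at 4 sites, for 66 ribosomal protein genes, the 1922 bright non-members and all tested probe sets. The member median lies at -0.37 in the dependent apex, -0.23 in the nondependent apex, -0.03 in the dependent base and 0.50 in the nondependent base.

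At the apex the members lay mostly on the other side of 0. In the dependent apex 62 of 66 genes were lower in the injured lung, with a median of -0.37 and medians of -0.53, -0.24 and -0.37 in dogs 1, 2 and 3. By their brightest probe sets all 35 large-subunit genes had a negative difference. Of the 61 further tested probe sets 37 (60.7%) had the sign of their gene's brightest one. Those of RPL10, RPL23, RPL27A, RPL31, RPL35A, RPL37A, RPL38 and the stalk gene RPLP2 were all positive. The median was -0.37 for the 82 members among the 2004 brightest probe sets. It was -0.0 for the 45 below them, of which 22 were higher. Of the 127 probe sets 50 (39.4%) were lower in all 3 dogs, beside 9.65% of all tested probe sets and 24.2% of the bright non-members. No member passed, and no tested probe set did (0.0% in limma). At an unadjusted p under 0.05 there were 20 member probe sets lower and 0 higher (15.7%), beside 6.94% of all tested probe sets.

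The smallest p values there belonged to RPL27 at -0.75 ± 0.24, RPL23 at -0.61 ± 0.21, RPLP2 at -0.59 ± 0.21 and RPLP1 at -0.58 ± 0.21 (limma adjusted p of 0.638 to 0.639). Of these 4, RPLP1 had the closest dogs, at -0.59, -0.54 and -0.62, from control signals of 11.33, 11.65 and 11.24 to injured signals of 10.74, 11.11 and 10.62. All injured arrays were below all control arrays. On the positive side were RPS9 (0.37), RPS25 (0.34), RPS19 (0.08) and RPS2 (0.05), with limma adjusted p of 0.889 to 0.986.

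The dependent apex median was -0.14 after quantile normalization (51 of 66 lower), -0.07 after cyclic loess (44 lower) and -0.18 when centred on the bright non-members (51 lower). Without the 3 arrays that stood apart it was -0.30, with 54 of 66 lower, on 2 injured arrays at this site, and RPS2 stood at 0.22 and RPS25 at 0.56. The median of the bright non-members was itself lower in the injured lung by 0.12, 0.14 and 0.30 in the 3 dogs.

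In the nondependent apex 50 of 66 genes were lower, with a median of -0.23 and dog medians of -0.35, -0.12 and -0.21. Of the 127 probe sets 37 (29.1%) were lower in all 3 dogs, beside 10.3% of all tested probe sets and 11.9% of the bright non-members. The median was -0.18 after quantile normalization, -0.16 after cyclic loess and -0.17 without the 3 arrays that stood apart, where RPS14 stood at 0.14. RPS27L at -0.99 ± 0.34, RPL19 at -0.91 ± 0.31, RPL6 at -0.87 ± 0.31 and RPS7 at -0.96 ± 0.37 had the smallest p values among lower genes (limma adjusted p of 0.791 to 0.841). RPL38 (0.54), RPS14 (0.37), RPS21 (0.38) and RPS19 (0.29) led the higher ones. No member and 0.0% of all probe sets passed, with 8 member probe sets lower and 1 higher at an unadjusted p under 0.05. That is 7.09% of the members, near the 5.41% of all tested probe sets.

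The dependent base had no common direction: 29 genes were higher and 37 lower, with a median of -0.03 and dog medians of 0.33, -0.04 and -0.35. By its brightest probe set RPL4, which reaches into the peptide exit tunnel, was higher in all 3 dogs at 0.82 ± 0.27, as was RPS13 at 0.74 ± 0.31. The other RPL4 probe sets stood at 0.53 and 0.13, and the latter was at -0.62 in dog 3. RPL9 at -0.88 ± 0.38 and RPS14 at -0.77 ± 0.37 were far lower in dog 3 (-2.55 and -1.94) than in the others. The other RPS14 probe sets stood at -0.07 and 0.72. Here too 0 members and 0.0% of probe sets passed in limma, with 5 member probe sets higher and 3 lower at an unadjusted p under 0.05. That is 6.3% of the members and 6.21% of all tested probe sets. Leaving out the 3 arrays that stood apart turned the median to 0.09, with 40 of 66 higher, and moved RPL9 to -0.09 and RPS14 to -0.23. Leaving out all arrays of dog 3 turned the median to 0.17. It was 0.03 after cyclic loess and 0.06 when centred on the bright non-members.

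Averaged over the 4 sites the members lay near 0. The mean injured-minus-control difference had a median of -0.02 over the 66 genes, with 30 higher and 36 lower and a range from -0.38 to 0.30. The median was 0.01 after cyclic loess, 0.04 when centred on the bright non-members, 0.05 without dog 3 and 0.02 without the 3 arrays that stood apart. No member passed, while 0.21% of all tested probe sets did. The sites enter this mean, so it is not separate evidence. RPL35 (0.28 ± 0.12), RPL36AL (0.30 ± 0.13), RPS20 (0.30 ± 0.14) and RPL3 (0.23 ± 0.11) had the smallest p values above 0 (limma adjusted p of 0.414 to 0.527), followed by RPS3A, RPL24, RPL36 and RPS10 at 0.19 to 0.28. Below 0 they were RPL10 (-0.38 ± 0.17), RPLP1 (-0.22 ± 0.10), RPL19 (-0.32 ± 0.16) and RPL37A (-0.19 ± 0.10), followed by RPL6, RPL23A, RPL30 and RPL11 at -0.26 to -0.30. RPL35 (0.25, 0.34 and 0.25) and RPL19 (-0.30, -0.34 and -0.32) had nearly equal values in the 3 dogs, whereas RPL6 and RPL11 were lower mainly in dog 3 (-0.82 and -0.98).

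**Figure D4:**
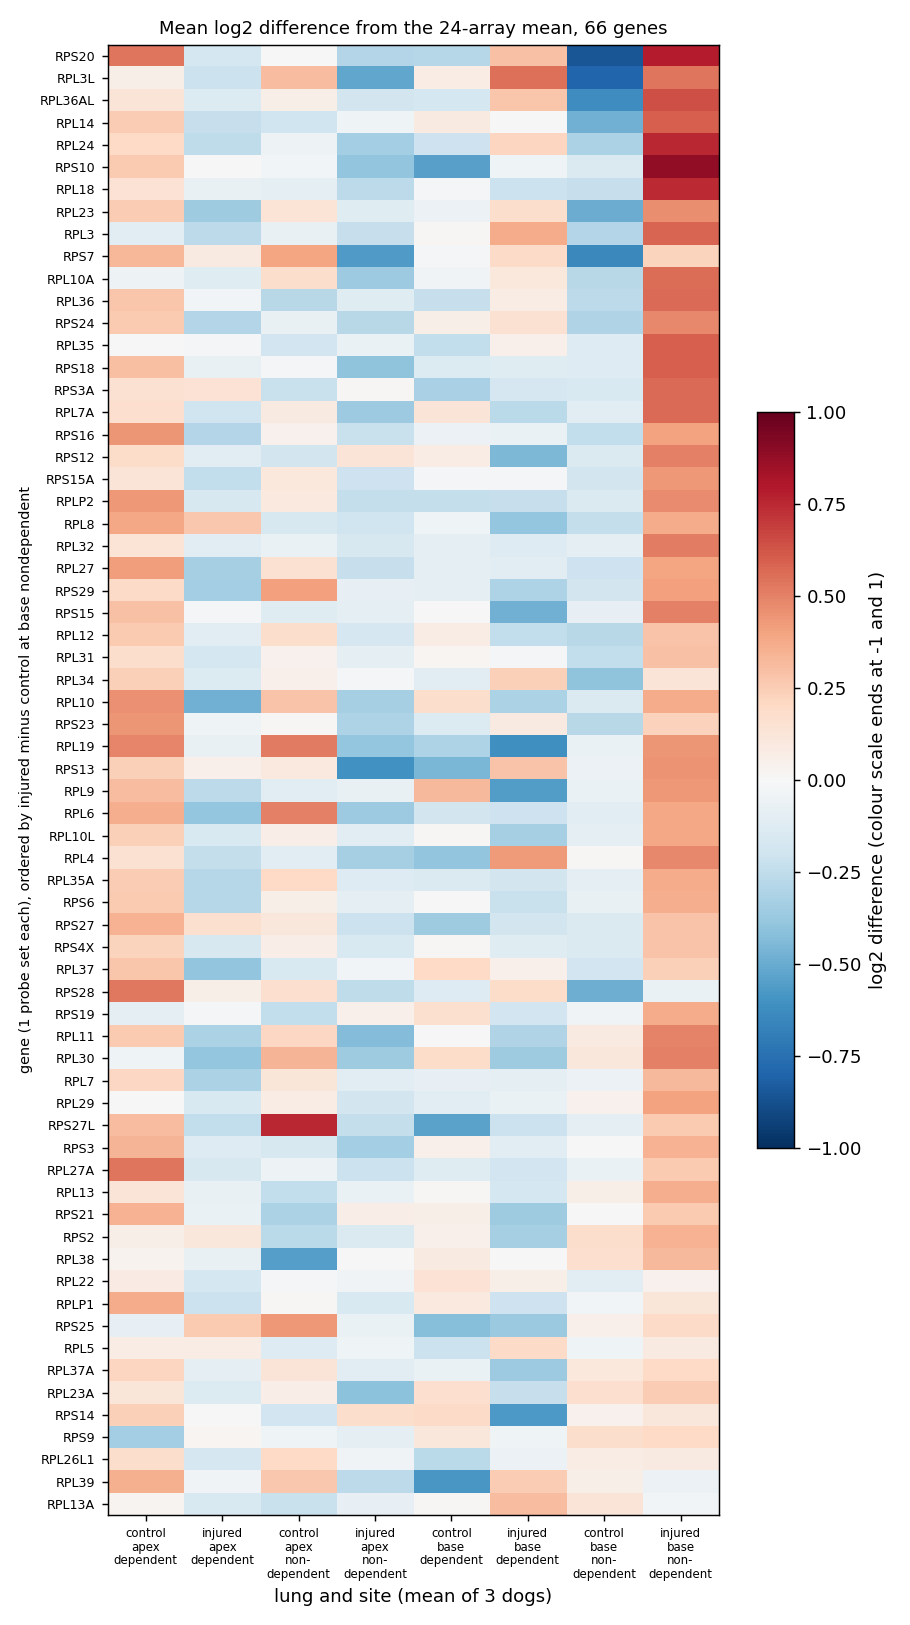
Mean log2 difference from the 24-array mean (colour, blue lower and red higher, scale ending at -1 and 1) for 66 ribosomal protein genes (rows) in 8 groups of 3 dogs (columns). Genes are ordered by the injured-minus-control difference in the nondependent base, from RPS20 (1.64) to RPL13A (-0.16); 63 of 66 genes lie above their mean in that injured group and 59 in the control dependent apex.

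Within the injured lung the members were higher at the base than at the apex in 62 of 66 genes (median 0.29, dog medians 0.44, 0.22 and 0.23). Among the 200 brightest probe sets the medians were 0.28 for members and 0.27 for others, with 91.4% and 83.0% higher. The 45 member probe sets below the 2004 brightest had a median of -0.04, with 19 higher. Of the 127 probe sets 52 (40.9%) were higher in all 3 dogs, beside 11.3% of all tested probe sets and 28.6% of the bright non-members. None passed, against 0.0349% of all tested probe sets. By the brightest probe set of each gene the nearest were RPL3 at 0.73 ± 0.16 (limma adjusted p = 0.0861), RPL24 at 0.78 ± 0.18 (0.106), RPS20 at 0.77 ± 0.19 (0.144) and RPL23 at 0.56 ± 0.14 (0.159). A further RPL3 probe set, at 0.63, had the smallest limma adjusted p of all member probe sets (0.078). At an unadjusted p under 0.05, 28 probe sets had a positive and 0 a negative difference (22%), beside 9.03% of all tested probe sets. RPS14 (-0.32), RPS25 (-0.19), RPL8 and RPS21 (both -0.04) were the only genes below 0. The median was 0.10 after quantile normalization (44 of 66 higher) and after cyclic loess (40 higher). Without the 3 arrays that stood apart it was 0.33, with 58 of 66 higher and again 0 members called. RPL3 then stood at 0.82 (adjusted p = 0.0519) and RPS14 at 0.13.

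In the control lung the base lay below the apex in 55 of 66 genes (median -0.22, dog medians -0.46, -0.29 and 0.04). Of the 127 probe sets 34 (26.8%) were lower in all 3 dogs, beside 11.1% of all tested probe sets and 11.8% of the bright non-members. RPS20 (-0.84), RPS27L (-0.84), RPS28 (-0.66) and RPL23 (-0.47) had the smallest p values, all with a limma adjusted p of 0.945, and 0.0% of all probe sets passed. On the positive side RPL38 (0.39), RPS9 (0.34), RPS19 (0.24) and RPS2 (0.22) came first. Among the members 16 probe sets were lower and 0 higher at an unadjusted p under 0.05 (12.6%), beside 5.16% of all tested probe sets.

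Between positions the injured lung had lower values in the dependent than in the nondependent pieces in 57 of 66 genes (median -0.23, dog medians -0.19, -0.12 and -0.37). Among the 200 brightest probe sets the medians were -0.29 for members and -0.24 for others. Of the 127 probe sets 53 (41.7%) were lower in all 3 dogs, beside 11.8% of all tested probe sets and 26.3% of the bright non-members. RPS12 (-0.60), RPS6 (-0.39), RPL10L (-0.38) and RPS15 (-0.46) had the smallest p values below 0, and RPS28, RPS7, RPS13 and RPL39 at 0.25 to 0.31 above it. In the control lung 51 of 66 genes were higher in the dependent pieces (median 0.16, dog medians 0.0, 0.32 and 0.10). So were 1304 of the 1922 bright non-members (median 0.08). Among the 200 brightest probe sets 85.7% of members and 81.8% of others were higher. RPS20 (0.55), RPL37 (0.41), RPL8 (0.37) and RPS24 (0.35) led the higher genes. RPS25 (-0.50), RPS27L (-0.44), RPL39 (-0.27) and RPL26L1 (-0.18) led the lower ones. No member and 0.0% of all probe sets passed in either lung by limma. At an unadjusted p under 0.05 2 probe sets were higher and 10 lower among injured pieces (9.45%, beside 5.27% of all tested). Among control pieces 2 were higher and 3 lower (3.94%), a share below the 4.79% of all tested probe sets. After quantile normalization the injured median was -0.10 and the control median 0.03, and after cyclic loess -0.07 and 0.04. Without the 3 arrays that stood apart the injured median was -0.15, with 54 of 66 lower. RPS12, at -0.32, -0.13 and -1.34 in single dogs, then stood at -0.22, RPS15 at -0.13 and RPS28 at 0.12.

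The difference of the injury contrast between base and apex was tested directly as an interaction, which uses the same arrays as the site contrasts. Its member median was 0.56, with 60 of 66 genes above 0 and dog medians of 0.92, 0.50 and 0.30. Of the 1922 bright non-members 1217 were above 0 (median 0.12). Among the 200 brightest probe sets the medians were 0.45 for 35 members and 0.35 for 165 others. RPS20 was the nearest to the threshold at 1.61 ± 0.27 (limma adjusted p = 0.083; 2.63, 1.59 and 0.61 in single dogs), then RPL23 at 1.03 ± 0.21 (0.19), RPL24 at 1.12 ± 0.25 (0.19) and RPL36AL at 1.11 ± 0.27 (0.224). RPS14 (-0.42), RPS9 (-0.23), RPS2 (-0.19) and RPS19 (-0.16) led the genes below 0. No member passed and 0.0% of all probe sets did, with 40 member probe sets above 0 and 0 below at an unadjusted p under 0.05 (31.5%, beside 8.26% of all tested). After quantile normalization the median was 0.24. Without the 3 arrays that stood apart it was 0.54, with 59 of 66 above 0. RPS20 (1.70) and the second probe set of RPL24 (1.42) then passed, each with a limma adjusted p of 0.0332, among 24 of the 20034 tested probe sets, and RPS14 stood at 0.04.

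The corresponding interaction with position had a member median of -0.38, with 56 of 66 genes below 0 and dog medians of -0.18, -0.44 and -0.38. Of the 1922 bright non-members 1383 were below 0 (median -0.20). Among the 200 brightest probe sets the medians were -0.44 for 35 members and -0.37 for 165 others. RPS20 (-0.74), RPL23 (-0.54), RPL9 (-0.99) and RPS21 (-0.74) had the smallest p values, each with a limma adjusted p of 0.851, and 0.0% of all probe sets passed. RPL39 (0.54), RPS25 (0.38), RPS13 (0.37) and RPS27L (0.20) lay on the other side. At an unadjusted p under 0.05 there were 18 member probe sets below 0 and 2 above (15.7%, beside 5.43% of all tested). The median was -0.09 after quantile normalization, -0.08 after cyclic loess and -0.22 when centred on the bright non-members. Without the 3 arrays that stood apart it was -0.32, with 53 of 66 below 0, and RPL9 stood at -0.63.

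Once group and dog were taken out, most members still varied together over the 24 arrays. The correlation of a gene's residuals with the median of the other members had a median of 0.47 and was above 0 for 59 of 66 genes. It was highest for RPL27 (0.82), RPL32 (0.80), RPS29 (0.80), RPL10L (0.78) and RPS3 (0.78), and RPL23 had 0.74, RPS20 0.59 and RPL36AL 0.46. RPL10A was the lowest. Against the member median, all tested probe sets had a median of -0.05 and the bright non-members 0.17. These correlations share the arrays and their scaling and are descriptions.

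The members were also steadier than most probe sets. Their residual SD had a median of 0.33, beside 0.45 for all tested probe sets and 0.37 for the bright non-members, and was smallest for RPLP1 (0.177), RPL35 (0.187) and RPL37A (0.187). RPL39 and RPS25, at 0.692 each, were the most variable. Between dogs the range of the mean signal had a median of 0.59, against 0.49 for all tested probe sets. RPS25, needed for translation from some internal entry sites, had the widest range at 1.49, with means of 7.10, 5.62 and 5.78. RPL30 (1.29), RPL11 (1.24) and RPS10 (1.23) followed. Dog 2 had the highest mean in 43 of 66 genes.

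Other parts of the translation machinery were set beside the members in the nondependent base. FAU, which encodes the small-subunit protein RPS30 fused to a ubiquitin-like protein, had log2 signals of 9.51, 9.48 and 9.32 in the control and 10.17, 10.45 and 9.61 in the injured pieces, without overlap, a difference of 0.64 ± 0.21 (limma adjusted p = 0.284). All 15 tested translation factors and related genes with TOP mRNAs had a positive difference (median 0.45). The smallest p values were those of NAP1L1, a histone chaperone, at 0.82 ± 0.24, PABPC1, the poly(A)-binding protein, at 0.77 ± 0.25 and BTF3, a nascent chain factor, at 0.80 ± 0.29. None passed. At this site 1073 of the 1922 bright non-members were higher (median 0.065), as were 77.0% of the non-members among the 200 brightest probe sets. Over all 20034 tested probe sets 8407 were higher. After quantile normalization 8 of the 15 genes with TOP mRNAs were higher (median 0.17), and after cyclic loess 11 (median 0.21).

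Of 50 tested ribosome assembly genes, 29 were higher and 21 lower in the nondependent base (median 0.17), and 2 rose. NCL (nucleolin), a major nucleolar protein, rose by 1.39 ± 0.23 (limma adjusted p = 0.00738), with signals of 7.98, 9.11 and 9.41 in the control and 10.18, 10.09 and 10.40 in the injured pieces. PWP1, a regulator of ribosomal RNA transcription, rose by 1.93 ± 0.43 (adjusted p = 0.0497), from 6.08, 6.81 and 7.18 to 7.25, 9.78 and 8.83. Neither gene's groups overlapped, although PWP1 was not called Present in the control piece of dog 1. Neither passed after quantile normalization, with no block for the dog, with 1 value per dog, with the covariates, without dog 1 or without dog 2.

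The 9 member probe sets that were not tested were those of RPL10, RPL13, RPL35A, RPL39L, RPL41, RPLP2, RPS12, RPS28 and RPS6. The first 7 were called Present on 0 of 24 arrays and the last 2 on 5. The RPL13 probe set was never called Present although its mean log2 signal was 11.72. RPL39L and RPL41 had no other probe set and are the 2 genes without a test. By symbol, 64 of the 68 genes were also found in RefSeq's dog annotation (UU_Cfam_GSD_1.0), those without a match being RPL23A, RPL39, RPL39L and RPL41.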

How the data were processed

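For each probe set the authors deposited a linear signal intensity and a Present, Marginal or Absent call with its detection p-value, on 24 human Affymetrix arrays, per the file headers. The authors' values had a trimmed mean of 149.94 to 149.95 on each array, with 2% cut at both ends. Their software, settings and any probe masking: not given in the sources used here. No columns of other samples were present.

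Control probe sets (68) and probe sets with no call (11) were left out. Deposited intensities were brought to one trimmed mean and converted to log2, after the 3 signals of 0 had been set to 0.1. Probe sets called Present on at least 6 arrays were kept. Gene names came from the platform annotation: 17255 tested probe sets had 1 symbol, 930 several and 1849 none.

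One limma 3.58.1 model (R 4.3.3) held all 24 arrays, 8 groups and the dog as a block, since the titles number the dog of each piece. The deposited file headers number all 3 dogs differently from the titles but divide the arrays into the same 3 sets of 8. Empirical Bayes moderation used an intensity trend, and p-values were adjusted over 20034 probe sets (Benjamini-Hochberg, 0.05). Lavage was given to whole lungs, so pieces of a lung are not separate treated units. Beyond the dog, the same-lung correlation was -0.0396. The median SE was 0.363 for 1 site and 0.182 for the mean of 4, and precision is limited by the number of arrays. The procedure was tested on simulated data.

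A gene with several probe sets is represented by the brightest. Named were members that passed, the 4 with the smallest p in each direction per comparison (8 for the mean of 4 sites), and a fixed set of stalk, paralog and extraribosomal genes. The members, lists and tests were chosen with earlier results of these data known. Alternatives covered the block, the lung as a random block, 1 value per dog, quantile and cyclic loess normalization, centring, an offset of 16, detection filters, the trend, each dog and the 3 outlying arrays left out, and 3′ minus 5′ covariates. Cyclic loess and centring on the bright non-members were chosen after seeing the data.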

Additional observations from a re-analysis of the deposited data

Results flagged for a closer look

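Several results stood out because every dog moved one way at one place and the opposite way at another. The differences between sites were not tested as such, apart from the interactions given with the results, in which no member passed.

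The member median of the injured-minus-control difference was positive in all 3 dogs in the nondependent base and negative in all 3 in both apical sites. The gap was 0.90 against the dependent apex and 0.75 against the nondependent apex, on the log2 scale. The bright non-members had the same signs in every dog, with smaller medians. These were 0.04, 0.21 and 0.01 in the nondependent base, -0.12, -0.11 and -0.32 in the dependent apex and -0.07, -0.03 and -0.08 in the nondependent apex. The member medians at the 3 sites were nearer 0 after quantile and cyclic loess normalization.

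The brighter RPL23 probe set was higher in all 3 injured lungs at both basal sites and lower at both apical sites. Some of these differences were close to 0. In dogs 1, 2 and 3 it stood at 0.54, 0.15 and 0.01 in the dependent base and at -0.45, -0.04 and -0.27 in the nondependent apex. Its gaps were 0.84 for the dependent base against the dependent apex, 1.57 for the nondependent base against the dependent apex, 0.49 for the dependent base against the nondependent apex and 1.21 for the nondependent base against the nondependent apex. Its dependent-minus-nondependent difference also had opposite signs in the control and injured lung, a gap of 0.54. So did its base-minus-apex difference, a gap of -1.03. The second, dimmer RPL23 probe set went the other way in the dependent apex (0.36) and had the sign of the brighter one at the other sites. Its position difference was also reversed, at -0.11 in the control and 0.09 in the injured lung. Its level difference was -0.02 and 0.35, with the signs of the brighter one.

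The brightest RPS20 probe set was higher in every injured lung at both basal sites and lower in the dependent apex. Its gaps to the dependent apex were 1.29 for the dependent base and 2.35 for the nondependent base. Its base-minus-apex difference was negative in every control lung and positive in every injured lung, a gap of -1.61, and that of RPL36AL likewise, a gap of -1.11. The brighter RPLP2 probe set differed by 1.21 between the nondependent base and the dependent apex, where the dim one stood at 0.25 and 0.31. The other 2 RPS20 probe sets stood at -0.80 and 0.62 in the dependent apex.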

How the results depend on the processing

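In the nondependent base 3 members passed in the reported fit. With no replicate block for the dog 0 passed, and likewise 0 with 1 value per dog, after quantile normalization and with the 3′ minus 5′ covariates. There was 1 with no intensity trend, after cyclic loess and when centred on the bright non-members, and 5 when centred on the median of tested probe sets. Leaving out one dog gave 0 to 5. The member median there was 0.13 after quantile normalization and 0.19 after cyclic loess. In the dependent apex it was -0.14, -0.07 and, centred on the bright non-members, -0.18. For position in the injured lung it was -0.10 and -0.07, for level in the injured lung 0.10 in both, for the interaction with position -0.09, -0.08 and, centred on the bright non-members, -0.22, and for the interaction with level 0.24 after quantile normalization. For level in the injured lung 1 member passed when centred on the median, and 0 to 1 with one dog left out. For the interaction with level 2 passed without the 3 outlying arrays and 0 to 3 with one dog left out. The block for the dog changed no other call of a member.

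Genes near 0 that did not pass turned sign in places. With one dog left out, RPL11 ranged from -0.50 to 0.07 over the mean of 4 sites. In the dependent apex RPS19 ranged from 0.00 to 0.20 and RPS2 from -0.24 to 0.26. RPS14 ranged from -0.11 to 0.62 in the nondependent apex, from -0.56 to 0.11 for level in the injured lung and from -0.76 to 0.18 for the interaction with level. In the nondependent base RPL13A ranged from -0.50 to 0.23 and RPL39 from -0.62 to 0.48, and RPL39 from -0.47 to 0.07 for position in the control lung. For level in the injured lung RPS25 ranged from -0.39 to 0.20 and RPS21 from -0.11 to 0.03. RPS2 ranged from -0.02 to 0.45 for level in the control lung and from -0.53 to 0.07 for the interaction with level. Without the 3 outlying arrays RPL11 stood at 0.06, and RPS14 at 0.13 for level in the injured lung and 0.04 for the interaction. Centred on the median, RPS19 stood at -0.01 and RPS2 at -0.05 in the dependent apex, and RPL8 at 0.04 and RPS21 at 0.03 for level in the injured lung. With the covariates RPS19 stood at -0.02 and RPS2 at -0.09 in the dependent apex, RPS2 at -0.03 for level in the control lung, and RPS2 at 0.11, RPS19 at 0.02 and RPS9 at 0.01 for the interaction with level. RPL39 stood at 0.01 in the nondependent base after both normalizations. The cause of these changes was not tested.

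Human probes on dog RNA, 3 dogs and 1 array per piece limit all of these values.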
